A study of Mus musculus with 4 samples.

Results

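The levels of 7 cholesterol synthesis genes were followed through the immune cells of the mouse spinal cord without injury and after contusion. They were Hmgcs1, Idi1, Fdft1, Sqle, Lss, Cyp51 and Srebf2, found by their symbols among the genes of the deposited matrices, where each symbol occurred once. The choice applied no cutoff on a measured value, but it was made with earlier results of these data known. The cells were CD45+ cells sorted from cord segments around the lesion of 3-month-old C57BL/6 mice of both sexes and profiled by droplet single-cell RNA sequencing in 4 libraries. The standard sham library came from uninjured cords of sham-operated mice. The ActD sham library came from such cords with actinomycin D, a blocker of transcription, present during dissociation (Act-seq). The other 2 libraries came from cords at 3 and 14 days post injury (3 dpi and 14 dpi) after a moderate contusion at a thoracic level, and sham mice had a laminectomy only. The labels mark Act-seq for the sham alone, whereas the study's Results section describes it for the injured cords too. The study's methods give a total of mice for the control, 3 dpi and 14 dpi groups together, and the number behind each library is not given in the sources used here. With 1 library per condition there was no replicate, no test between conditions was possible, and every interval below is a 95% interval that covers counting error only.

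Cholesterol is built from acetyl-CoA through mevalonate and isoprenoid units to squalene, which is oxidised, closed into lanosterol and trimmed to cholesterol. The transcription factor SREBP2, encoded by Srebf2, is held at the endoplasmic reticulum when sterols are plentiful and is cleaved and sent to the nucleus when they run low, where it switches on the enzymes of the pathway. Cells that engulf myelin, a membrane very rich in cholesterol, have to store that sterol as esters in droplets or export it through ABCA1 and ABCG1, whose genes are induced by the liver X receptors (LXR) when oxysterols accumulate. The question put to these data was whether the synthesis genes are lower in the microglia and macrophages that meet myelin debris at 3 and 14 dpi than in cells that do not.

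SREBP2 acts through short elements in promoters, and the promoters of 3 of the genes are shown, those in which a match to such an element was found. The choice does not follow the levels. In microglia Idi1, which is not shown, was higher at 14 than at 3 dpi, as were Hmgcs1 and Cyp51. Srebf2, which is shown, and Lss, which is not, differed little. Of the 7 genes, 5 matched the RefSeq promoter table (GRCm38.p6). Sqle and Fdft1 had no entry. The sequences are the bases upstream of the RefSeq start, cut short where the annotation puts the gene's first base further upstream, and capitals mark a match to a sterol regulatory element (TCACNCCAC or the shorter TCACCNCA) or to a CCAAT box (CCAAT, which reads as ATTGG on the opposite strand).
Hmgcs1 (chr13:119690101-119690350, + strand): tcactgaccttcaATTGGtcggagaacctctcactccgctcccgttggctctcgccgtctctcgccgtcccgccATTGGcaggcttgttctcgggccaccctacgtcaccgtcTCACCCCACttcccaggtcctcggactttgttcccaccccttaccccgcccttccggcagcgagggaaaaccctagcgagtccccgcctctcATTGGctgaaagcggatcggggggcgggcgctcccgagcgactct
Cyp51 (chr5:4104747-4104947, - strand): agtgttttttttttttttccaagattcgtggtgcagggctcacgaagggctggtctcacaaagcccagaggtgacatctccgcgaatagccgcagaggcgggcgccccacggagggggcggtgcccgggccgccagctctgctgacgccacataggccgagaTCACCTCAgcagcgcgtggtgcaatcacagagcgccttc
Srebf2 (chr15:82147019-82147180, + strand): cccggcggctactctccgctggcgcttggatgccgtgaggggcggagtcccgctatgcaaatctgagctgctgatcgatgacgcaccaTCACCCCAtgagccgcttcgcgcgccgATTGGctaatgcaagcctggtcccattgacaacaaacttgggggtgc
The Hmgcs1 promoter held TCACCCCAC between 137 and 129 bases before the start. The Cyp51 promoter held TCACCTCA between 88 and 81 bases before it, and the Srebf2 promoter held TCACCCCA between 162 and 155 bases before it. TCACNCCAC, searched on both strands, occurred in 1 of the 5 promoters and in 1.04% of the 27025 promoters of the table. The shorter TCACCNCA, which overlaps it and was chosen after the promoters had been read, occurred in 3 of the 5 and in 3.49% of all. The promoters of Idi1 and Lss held neither form. A CCAAT box occurred in all 5 full windows and in 34.5% of all promoters. Positions count from the RefSeq start, which lies past the last base shown for Cyp51 and Srebf2. The CCAAT box of Cyp51 lies in the stretch that is not shown. A match describes the letters and shows no binding.

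After filters on genes per cell, mitochondrial share and doublets, 5035 cells of the standard sham, 2135 of the ActD sham, 8214 of 3 dpi and 9078 of 14 dpi were kept, with a median of 7435 to 9663 unique molecular identifiers (UMIs, 1 per captured transcript) per cell. Between 3 and 36 cell barcodes were shared by any 2 libraries. Levels are given as UMIs of a gene scaled to a total of 1000000 UMIs of the cells in a class (CPM), with each transcript tagged once near its 3′ end. Cells were clustered and named from marker genes. Microglia, the resident macrophages of the cord, numbered 2621, 1614, 916 and 4055 in that order, and the summed level of 10 microglial markers in them was 14156, 22807, 5488 and 10998 CPM. Injury macrophages, named from markers of monocyte-derived cells such as Arg1 and Fn1, were found at 3 dpi (2442 cells, led by Gpnmb) and 14 dpi (246 cells led by Gpnmb and 371 led by Vcan). A Vcan-led cluster of 1143 cells at 3 dpi did not meet the rule for a name and is reported as Vcan-led cells. T cells numbered 50 in the standard sham, 507 at 3 dpi and 746 at 14 dpi, with no T cell cluster in the ActD sham. B cells numbered 807, 64, 129 and 486 in the 4 libraries.

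The 7 genes together were low-level transcripts in all classes. At both times after injury their summed level was lowest, by value, in Gpnmb-led injury macrophages and highest, by value, in dendritic cells. Gpnmb-led injury macrophages had 41.5 CPM (39.6 to 43.4) of the 7 genes at 3 dpi, and 62.7 CPM (54.7 to 71.5) later, at 14 dpi. In microglia their sum was 88.7 CPM (84.6 to 92.8) in the standard sham, 124.7 CPM (119 to 130) in the ActD sham, 56.8 CPM (53.4 to 60.2) at 3 dpi and 84.1 CPM (81.6 to 86.7) at 14 dpi. Within the 3 dpi library the order of the larger classes was Gpnmb-led macrophages, microglia, Vcan-led cells (64.5 CPM, 59.9 to 69.4), border macrophages (70.0 CPM, 60.1 to 81.0), neutrophils (82.4 CPM, 74.2 to 91.2) and T cells (91.2 CPM, 78.4 to 105). From the microglia upward each interval overlapped that of the next class, whereas the interval of the Gpnmb-led macrophages lay below that of the microglia. This order holds for CPM and not for UMIs of the 7 genes per cell. Per cell, microglia held 1.19, border macrophages 1.07, Gpnmb-led macrophages 0.760, Vcan-led cells 0.635, T cells 0.357 and neutrophils 0.203. Dendritic cells, which present antigen, were at 227.4 CPM (186 to 276), and a cluster of 51 fibroblasts, a cell type outside the CD45+ sort, was at 223.5 CPM (197 to 252).

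Within the 14 dpi library microglia, border macrophages (85.5 CPM, 74.0 to 98.3), T cells (93.3 CPM, 84.1 to 103) and neutrophils (93.5 CPM, 86.8 to 101) followed in this order, with each interval overlapping that of its neighbour. Only the Gpnmb-led macrophages and the 212 NK cells (66.7 CPM, 52.5 to 83.5, from 76 UMIs) lay below the microglia among the named classes. B cells (120.4 CPM, 109 to 133) and Vcan-led macrophages (132.0 CPM, 120 to 145) lay above these classes with overlapping intervals. Monocytes (205.6 CPM, 188 to 224) and dendritic cells (227.6 CPM, 214 to 242) were highest and also overlapped.

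**Figure D1:**
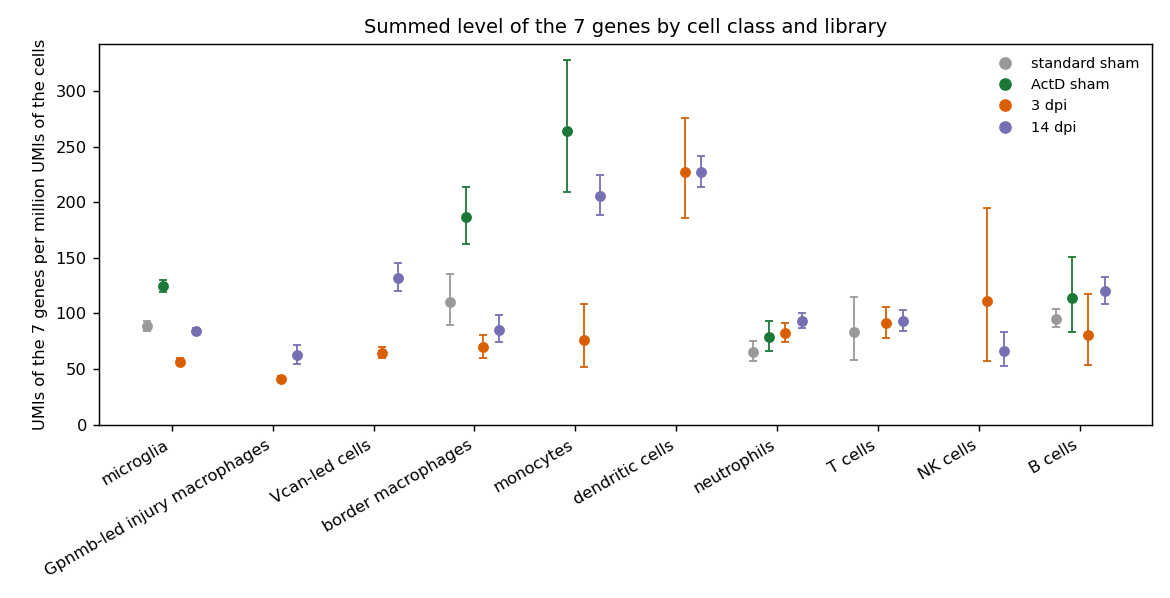
Summed level of the 7 genes in CPM (y axis) in 10 cell classes (x axis) of the 4 libraries (colours). Points are the value of 1 library and bars the exact Poisson 95% interval, which covers counting error only. Among microglia the 3 dpi point (56.8) is the lowest and the ActD sham point (124.7) the highest, while the 3 T cell points lie between 83.0 and 93.3.

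The enzymes were taken in the order of the pathway. Hmgcs1 encodes cytosolic HMG-CoA synthase, an early enzyme on the way to mevalonate. In microglia its level was 24.4 CPM in the standard sham, 32.9 CPM in the ActD sham, 13.3 CPM (11.7 to 15.1) at 3 dpi and 22.3 CPM at 14 dpi. The 3 dpi value was the lowest and its interval overlapped none of the others. Idi1 encodes isopentenyl-diphosphate isomerase, which interconverts both isoprenoid building blocks. Its level was 4.91, 15.6, 4.86 and 7.33 CPM in the same order of libraries, with the ActD sham (13.8 to 17.6) alone at the top. Fdft1 encodes squalene synthase, the first enzyme committed to sterols, and was at 4.72, 10.4, 7.0 and 6.94 CPM. Its 3 and 14 dpi values were alike and lay between those of both shams.

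The later enzymes act on squalene and lanosterol. Sqle encodes squalene epoxidase, a control point of the sterol branch, and its microglial level was 2.09 CPM in the standard sham, 6.05 CPM in the ActD sham, 3.34 CPM at 3 dpi and 3.23 CPM at 14 dpi. Lss encodes lanosterol synthase, which closes the sterol rings, and was at 2.63, 5.30, 2.25 and 2.07 CPM. For both genes the ActD sham was highest and both injured libraries overlapped. Cyp51 encodes the cytochrome P450 that demethylates lanosterol, and was at 13.9 CPM (12.3 to 15.6), 24.4 CPM (22.2 to 26.9), 8.62 CPM (7.35 to 10) and 22.9 CPM (21.5 to 24.2). It was lowest at 3 dpi, and its 14 dpi value overlapped the ActD sham. Srebf2, the transcription factor, had another order, with 36.1 CPM (33.5 to 38.8) in the standard sham, 30 CPM (27.5 to 32.7) in the ActD sham, 17.4 CPM (15.6 to 19.4) at 3 dpi and 19.4 CPM (18.2 to 20.7) at 14 dpi. It was the one gene of the 7 with its highest microglial level in the standard sham, and both injured libraries lay below both shams.

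**Figure D2:**
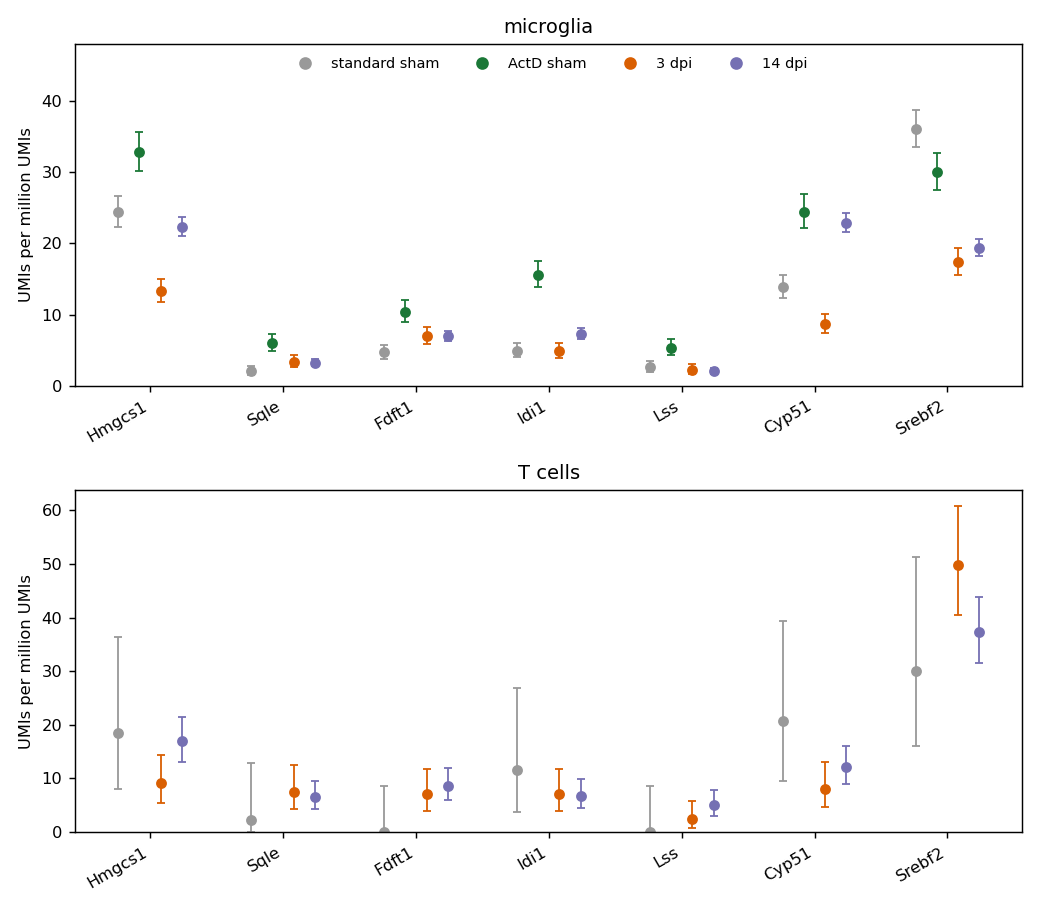
Level of each of the 7 genes (x axis) in CPM (y axis) in microglia of the 4 libraries (upper panel) and in T cells of the 3 libraries that held them (lower panel), with exact Poisson 95% intervals as bars. In microglia Hmgcs1 and Cyp51 are lowest at 3 dpi (13.3 and 8.62) and back at 22.3 and 22.9 at 14 dpi, whereas Srebf2 stays at 17.4 and 19.4; in T cells Srebf2 is at 49.9 at 3 dpi and 37.3 at 14 dpi.

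In microglia at 3 dpi all 7 genes were at lower CPM than in the ActD sham. The sum was 56.8 against 124.7 CPM, a log2 ratio of -1.13 (-1.24 to -1.03), or 2.20-fold lower. Idi1 (-1.69), Cyp51 (-1.5), Hmgcs1 (-1.30) and Lss (-1.24) had the lowest ratios, followed by Sqle (-0.86), Srebf2 (-0.79) and Fdft1 (-0.57), and each of the 7 intervals lay below 0. Part of this drop was shared by the transcriptome: the median log2 ratio of the 12257 genes that had 20 UMIs or more in this pair was -0.52. Relative to that median the sum was at -0.62, and 4 of the 7 genes (Idi1, Cyp51, Hmgcs1 and Lss) were more than 1.5-fold lower and none was 1.5-fold higher. Over all genes tested, 29.1% were 1.5-fold lower and 31.1% were 1.5-fold higher than the median.

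Microglia of the 3 dpi library also had more UMIs per cell, and RNA content and capture cannot be told apart in 1 library. Their mean total was 20903 UMIs per cell against 10750 in the ActD sham, so that the same drop was smaller when counted per cell. The UMIs of the 7 genes per microglial cell numbered 1.34 (1.28 to 1.40) in the ActD sham and 1.19 (1.12 to 1.26) at 3 dpi. The standard sham had 0.696 (0.664 to 0.729) with a mean total of 7848, and 14 dpi had 1.02 (0.991 to 1.05) with a mean total of 12150. Per cell, over all microglia, the 3 dpi library was thus below the ActD sham and above the other 2. This pooled count mixes clusters in unlike shares. Cycling microglia were 319 of 916 cells at 3 dpi, 54 of 1614 in the ActD sham and 59 of 4055 at 14 dpi, and counts by cluster follow below. With every cell thinned to 1000 UMIs, a UMI of any of the 7 genes was found in 8.44%, 10.9% (9.43 to 12.5), 5.25% (3.89 to 6.90) and 8.14% of microglia of the standard sham, the ActD sham, 3 dpi and 14 dpi, and without thinning in 44.4%, 57.8%, 56.7% and 49.6%. No class lacked these genes, so no background share could be given. Immediate early genes, which dissociation induces, summed to 51063 CPM in microglia of the standard sham, 1195 CPM in the ActD sham, 6126 CPM at 3 dpi and 870 CPM at 14 dpi. Proliferation genes summed to 714, 747, 2966 and 366 CPM. Their part in the 3 dpi values was not tested.

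The drop was seen in each microglial cluster. The microglia formed a P2ry12-led cluster, with the strongest resident profile, an Lpl-led cluster and a cycling cluster. In P2ry12-led microglia, whose median depth was similar in both libraries (10841 and 9414 UMIs), the sum was 54.9 CPM at 3 dpi (129 cells, 85 UMIs) and 120.0 CPM in the ActD sham. The log2 ratio was -1.13 (-1.46 to -0.81). Per cell the P2ry12-led microglia had 0.659 UMIs (0.526 to 0.815) of the 7 genes at 3 dpi and 1.24 (1.18 to 1.30) in the ActD sham. At 14 dpi they had 0.624 (0.584 to 0.667). Lpl-led microglia had 0.949 (0.863 to 1.04) per cell at 3 dpi, 1.31 (1.13 to 1.52) in the ActD sham and 1.21 (1.17 to 1.25) at 14 dpi. Cycling microglia had 1.75 (1.61 to 1.90), 4.11 (3.59 to 4.69) and 2.27 (1.90 to 2.69) in the same order. In Lpl-led microglia the 7 genes summed to 52.0 CPM at 3 dpi and to 108.1 CPM in the ActD sham (-1.06, -1.31 to -0.80). In cycling microglia it was 61.6 and 219.7 CPM (-1.83, -2.06 to -1.60), and Idi1 there was at 5.41 against 38.6 CPM. The medians of all genes in these pairs were -0.55 for the P2ry12-led, -0.41 for the Lpl-led and -0.54 for the cycling microglia. At 3 dpi the Lpl-led and P2ry12-led clusters did not differ detectably (-0.08, -0.42 to 0.27).

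From 3 to 14 dpi the summed level in microglia was higher by 0.57 on the log2 scale (0.47 to 0.67), with a median of all genes near 0 in this pair. Cyp51 (1.41, 1.17 to 1.65), Hmgcs1 (0.74, 0.55 to 0.95) and Idi1 (0.59, 0.26 to 0.94) had intervals above 0. Of the 7 genes, 2 (Cyp51 and Hmgcs1) were past 1.5-fold higher than the median with 0.5 UMIs added, where 22.4% of all genes tested were, with Idi1 next to the threshold, and none was past 1.5-fold lower, where 24.8% were. The intervals of Sqle, Fdft1, Lss and Srebf2 held 0, and their ratios lay between -0.12 and 0.16. Against the ActD sham, the 14 dpi sum was at -0.57 (-0.64 to -0.49), close to the median of all genes in that pair (-0.55). Relative to the median, Lss was at -0.81 and Idi1 at -0.54, while Cyp51 was at 0.45 and the others lay between -0.36 and -0.01. Lss was the 1 gene of the 7 past 1.5-fold lower, where 15% of all genes were, and none was past 1.5-fold higher, where 19% were. Both comparisons share the ActD sham cells.

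Both sham libraries differed in these genes as well. In microglia of the standard sham the sum was at -0.49 (-0.58 to -0.40) against the ActD sham and at 0.06 relative to the median of all genes. The members differed in sign. Idi1 (-1.67), Sqle (-1.53), Fdft1 (-1.14), Lss (-1.01), Cyp51 (-0.81) and Hmgcs1 (-0.43) were lower without actinomycin D, and Srebf2 was higher (0.26, 0.10 to 0.43). Without Srebf2 the sum was at -0.85 (-0.96 to -0.74). Relative to the median, 3 of the 7 genes (Idi1, Sqle and Fdft1) were past 1.5-fold lower against 17.6% of all genes, and Srebf2 was past 1.5-fold higher against 18.1%. The 20 immediate early genes had a median ratio of 5.87 in the same pair. The part of dissociation in the 3 dpi values was not tested. For Idi1 the ratio to the ActD sham was -1.67 in the standard sham and -1.69 at 3 dpi, and the other genes were less alike. Hmgcs1, Cyp51 and Lss had the lower ratio at 3 dpi, and Sqle and Fdft1 had it in the standard sham. Srebf2 had opposite signs, above the ActD sham in the standard sham and below it at 3 dpi.

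Of 12 further synthesis enzymes, 2 (Msmo1 and Sc5d) were past 1.5-fold lower than the median of all genes and 4 (Pmvk, Mvk, Mvd and Ebp) past 1.5-fold higher in microglia at 3 dpi against the ActD sham, beside 29.1% and 31.1% of all genes. The share higher was near that of all genes. Their median ratio was -0.14, above that of all genes (-0.52), whereas the median of the 7 was -1.23. Msmo1, which acts next to Cyp51 on the methylated sterols, was at 14.7 against 40.0 CPM (-1.45), and Sc5d, a sterol desaturase of the late pathway, at 7.16 against 18.1 CPM (-1.34). Pmvk, phosphomevalonate kinase, was at 41.3 against 15.9 CPM (1.37) and Mvk, mevalonate kinase, at 10.3 against 7.26 CPM (0.50). At 14 dpi the 12 enzymes had a median of -0.43, against -0.55 for all genes. Only Acat2 was past the fold below and only Pmvk above, beside 15% and 19% of all genes. The 6 genes that control SREBP processing (Scap, Insig1, Insig2, Mbtps1, Mbtps2 and Srebf1) had a median of -0.81 at 3 dpi. At 14 dpi their median was -0.62. At 3 dpi only Mbtps2, a protease that releases SREBP, was past 1.5-fold lower, at -1.27, beside 29.1% of all genes. None was past 1.5-fold higher there, beside 31.1%. At 14 dpi only Srebf1 was past 1.5-fold higher, at 0.24, and none lower, beside 19% and 15% of all genes.

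Several genes of sterol export and storage were higher at 3 dpi, and others were not. In microglia at 3 dpi, 5 of 8 genes of the LXR and efflux list (Apoe, Nr1h3, Smpdl3a, Abcg1 and Abca1) were past 1.5-fold higher than the median and 1 (Mylip) was past 1.5-fold lower, beside 31.1% and 29.1% of all genes. The list median was 1.06, and 3 of the 8 lay below the median of all genes. Apoe, the apolipoprotein that carries exported lipid, was at 1623 CPM in the ActD sham, 13503 CPM at 3 dpi and 84717 CPM at 14 dpi. Abca1 was at 103.6, 211.7 and 359.9 CPM, and Abcg1 at 30.6, 65.4 and 110.8 CPM. Both exporters thus differed in one direction from the ActD sham to 3 and to 14 dpi, while the sum of the 7 genes was lower at 3 dpi than at 14 dpi. Nr1h3, which encodes the macrophage form of LXR, was at 0.807 CPM in the ActD sham and 4.39 CPM at 3 dpi. Mylip, an LXR target that encodes a ubiquitin ligase, was lower at 3 dpi (59.2 against 176.8 CPM, -1.58). Of the 8 genes of esterification and droplets, 4 were past the fold above at 3 dpi (Plin2, Nceh1, Plin3 and Dgat2) and 5 at 14 dpi, when Soat1 joined them, beside 31.1% and 19% of all genes, and 2 of the 8 lay below the median of all genes at 3 dpi. Plin2, which coats lipid droplets, was at 28.5 CPM in the ActD sham, was at 596.1 CPM in the 3 dpi library and at 136.8 CPM in that of 14 dpi. Among 7 genes of sterol uptake and lysosomal handling, 6 passed the filter on UMIs. Of these, 3 (Lipa, Lrp1 and Scarb1) were past the fold above at 3 dpi and none below, beside 31.1% and 29.1% of all genes.

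**Figure D3:**
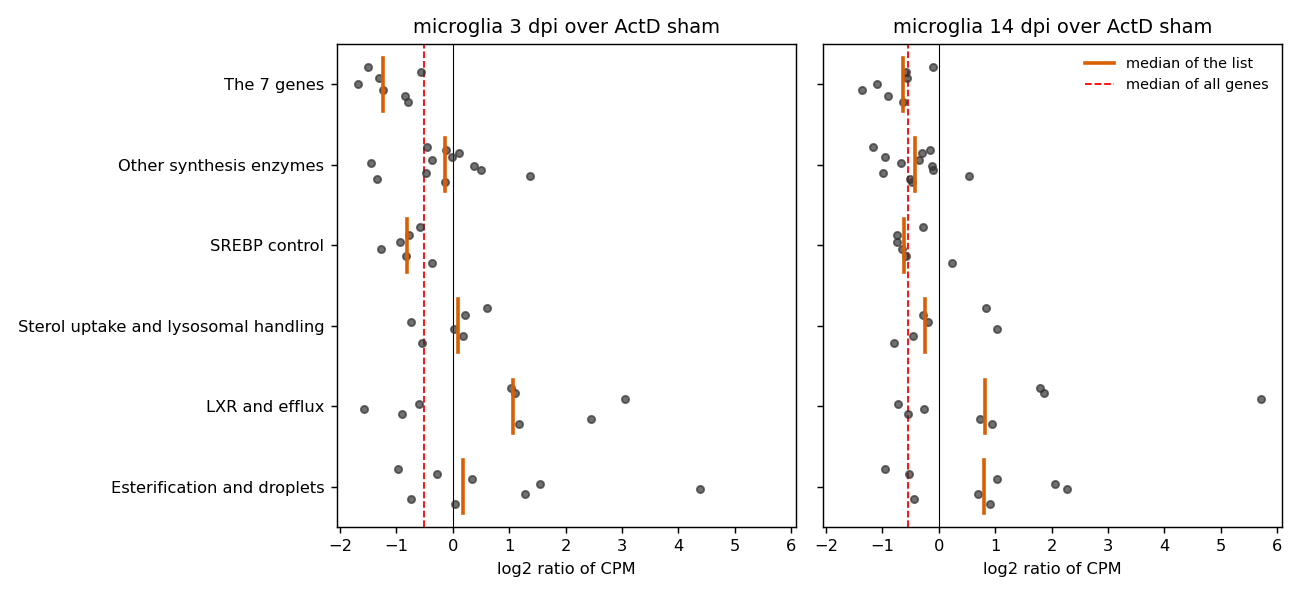
Log2 ratio of CPM in microglia at 3 dpi (left) and 14 dpi (right) over the ActD sham (x axis) for the genes of 6 lists (y axis). Each point is a gene that had 20 UMIs or more in the pair, orange lines are list medians and the red dashed line is the median of all genes (-0.52 and -0.55). At 3 dpi the 7 genes lie left of the dashed line with a median of -1.23, and the LXR and efflux list has a median of 1.06.

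Injury macrophages take up myelin debris at the lesion. The lipid-loading list held 10 genes: Gpnmb, Fabp5, Lgals3, Spp1, Lpl, Cd36, Msr1, Plin2, Cd63 and Ctsd. In these macrophages it summed to 70637 CPM at 3 dpi against 41293 CPM in microglia of the same library. Gpnmb, which names the cluster, is in the list, so the name and the list sum are not independent. In the Gpnmb-led macrophages at 3 dpi the 7 genes were at 12.5 CPM for Hmgcs1, 1.90 for Idi1, 5.38 for Fdft1, 1.94 for Sqle, 1.85 for Lss, 4.02 for Cyp51 and 13.9 for Srebf2. No gene was above its microglial level of that library. Against those microglia the sum was at -0.45 (-0.56 to -0.34). Idi1 (-1.35, -1.80 to -0.91), Cyp51 (-1.10, -1.41 to -0.79) and Sqle (-0.78, -1.26 to -0.29) were lowest, Fdft1 (-0.38, -0.69 to -0.06) and Srebf2 (-0.33, -0.52 to -0.13) had intervals below 0, and those of Hmgcs1 (-0.09) and Lss (-0.28) held 0. Srebf2 turned to 0.17 with clustering at resolution 1.2 and to 0.11 with doublets kept, where the sum was at -0.13 and -0.22. The median of all genes was -0.26, which left the sum at -0.19. Relative to it, 2 of the 7 genes, Idi1 and Cyp51, were past 1.5-fold lower against 20.2% of all genes tested, and none was past 1.5-fold higher against 15.1%. Proliferation genes summed to 342 CPM in these macrophages and to 2966 CPM in the microglia, and without cycling microglia the ratio was -0.34.

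At 14 dpi the Gpnmb-led macrophages remained below microglia of their library, at -0.42 (-0.63 to -0.23) for the sum. Cyp51 was at 11.1 against 22.9 CPM (-1.04, -1.54 to -0.58), while Hmgcs1 (21.4 and 22.3 CPM) and Idi1 (7.12 and 7.33 CPM) had intervals that held 0. Sqle rested on 2 UMIs there, at 0.570 CPM. Between 3 and 14 dpi the Gpnmb-led macrophages differed by 0.60 (0.39 to 0.80) for the sum, with Idi1 at 1.91, Cyp51 at 1.47 and Hmgcs1 at 0.77, and the intervals of the other 4 held 0. The genes whose intervals lay above 0 were thus Idi1, Cyp51 and Hmgcs1 in these macrophages and in microglia alike. The same genes were higher at 14 dpi outside these classes too. In Vcan-led cells Idi1 was at 3.73 CPM at 3 dpi and 16.7 at 14 dpi, Cyp51 at 7.73 and 32.7, and Hmgcs1 at 12.9 and 20.7. Over all cells of a library they were at 4.54 and 14.1, 7.69 and 23.1, and 14.4 and 22.8 CPM. In T cells only Hmgcs1 among them had an interval above 0. The median of all genes was 0.18 in the macrophage pair, and the intervals were not set against it. The median over the 7 ratios of that pair was 0.18 too.

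The Vcan-led cells, which carried fewer lipid-loading transcripts, had a higher summed CPM of the 7 genes than the Gpnmb-led macrophages of the same library. Their lipid-loading list summed to 28187 CPM in the 3 dpi library and to 4106 CPM in that of 14 dpi. The corresponding sums of the Gpnmb-led macrophages were 70637 and 30175 CPM. For the 7 genes the Vcan-led cells were at 64.5 against 41.5 CPM at 3 dpi (0.64, 0.51 to 0.76), and at 132.0 against 62.7 CPM at 14 dpi (1.07, 0.84 to 1.32). The medians of all genes in these pairs were 0.11 and 0.23. Per cell the order was reversed at 3 dpi, with 0.635 UMIs (0.590 to 0.683) in Vcan-led and 0.760 (0.726 to 0.795) in Gpnmb-led cells. Their mean totals were 9841 and 18327 UMIs. At 14 dpi the counts per cell were 1.15 (1.05 to 1.27) and 0.894 (0.780 to 1.02). Srebf2 (0.98 and 1.51), Cyp51 (0.94 and 1.56), Idi1 (0.98 and 1.23) and Sqle (1.28 and 3.28, the latter from 18 and 2 UMIs) had intervals above 0 at 3 and 14 dpi, and Fdft1 at 14 dpi alone (0.33 and 1.04). Hmgcs1 was level in both libraries (0.05, -0.23 to 0.31, and -0.05, -0.55 to 0.45). Monocyte markers summed to 595 CPM in the Gpnmb-led and 3257 CPM in the Vcan-led cells at 3 dpi, and immediate early genes to 6606 and 11453 CPM. Their part in the difference was not tested.

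Cells of one class were also split within a library by the share of their UMIs that came from the lipid-loading list, which holds no synthesis gene, in 3 parts of equal size (terciles), and the highest tercile was set against the lowest. In microglia of the uninjured ActD sham the sum of the 7 genes was 105.1 CPM in the highest tercile and 150.2 CPM in the lowest (-0.52, -0.67 to -0.36). Sqle (-1.55), Fdft1 (-1.14), Idi1 (-1.02), Cyp51 (-0.47) and Hmgcs1 (-0.34) had intervals below 0. In microglia at 3 dpi the sums were 52.6 and 61.2 CPM (-0.22, -0.43 to -0.00), and the median of all genes was itself at -0.13. In microglia at 14 dpi they were 84.8 and 79.1 CPM (0.10, -0.01 to 0.22), with Cyp51 at 25.1 against 19.2 CPM (0.38, 0.16 to 0.62). The median of all genes was -0.20 there, below that interval, and the median over the 7 genes lay 0.35 above it. In Gpnmb-led macrophages at 3 dpi the sums were 37.8 and 43.6 CPM (-0.21, -0.37 to -0.04), with Idi1 at -1.03 and Cyp51 at -0.88 and a median of all genes of -0.18. Over the alternatives that sum lay between -1.11 (resolution 1.2) and -0.022 (TMM scaling), and Cyp51 turned to 0.44 without cells that held a UMI of the myelin list. The microglial sums lay between -0.37 and -0.047 at 3 dpi and between -0.080 and 0.45 at 14 dpi. In these macrophages at 14 dpi the interval held 0 (0.37, -0.12 to 0.88, 82 cells per tercile).

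The boundaries of the terciles moved with the library. The highest tercile began at 0.798% of UMIs in ActD sham microglia and at 3.79% in microglia at 3 dpi. The median share of the list was 0.685% and 2.85% in these cells. Yet the median log2 ratio of its 10 genes, 3 dpi over the ActD sham, was 5.27. The genes that made up the share thus need not be the same in both libraries. Which of them set the split in the ActD sham was not tested, so its highest tercile need not hold lipid-loaded cells. Depth moved with the split as well: at 3 dpi the median total was 24588 UMIs in the highest tercile of microglia and 14377 in the lowest, and at 14 dpi 15192 and 8007, whereas it was 9605 and 9511 in the ActD sham. When the Lpl-led microglia of 14 dpi were split alone, the sums were 79.0 and 89.4 CPM (-0.18, -0.31 to -0.05), the reverse in sign of the value over all microglia of that library. The median of all genes in that split was -0.11, inside the interval of the sum, so no fall relative to the transcriptome was detectable. Between the clusters, the Lpl-led microglia at 14 dpi were above the P2ry12-led (86.4 and 74.2 CPM, 0.22, 0.11 to 0.33), with Cyp51 at 25.1 against 15.2 CPM. The median of all genes between these clusters was -0.21. At 3 dpi Gpnmb, a gene of the list, was at 214.6 CPM in microglia, 247.9 CPM in T cells and 2230 CPM in injury macrophages, and the part of free RNA in the split was not tested.

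**Figure D4:**
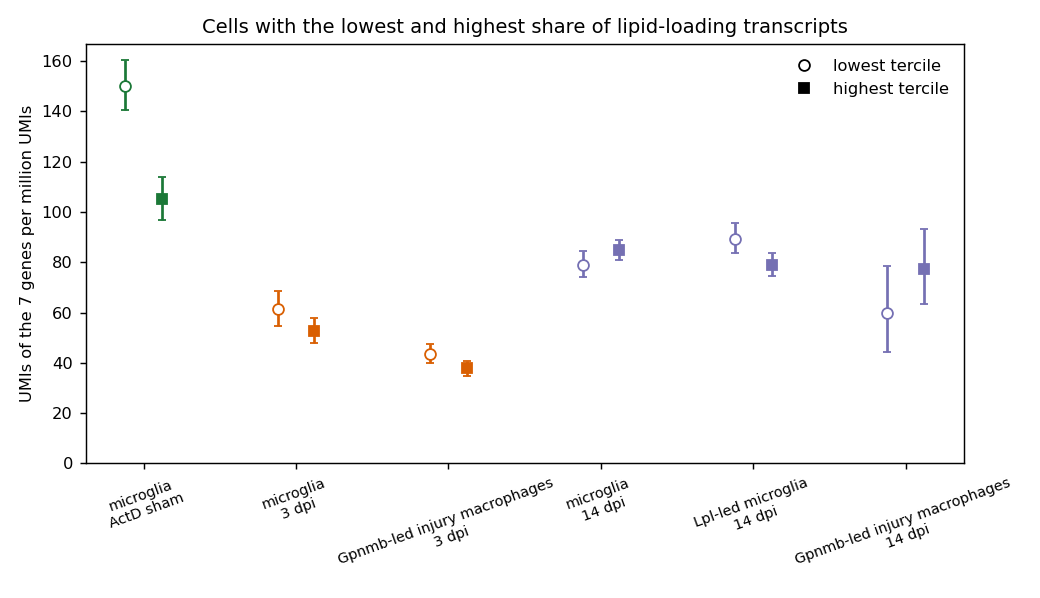
Summed level of the 7 genes in CPM (y axis) in the tercile of cells with the lowest (open circles) and highest (filled squares) share of lipid-loading transcripts, for 6 sets of cells (x axis), with exact Poisson 95% intervals as bars. The widest gap is in microglia of the uninjured ActD sham (150.2 and 105.1), and microglia at 14 dpi have the higher value in the highest tercile (79.1 and 84.8).

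Transcripts of myelin genes were also counted, and in these libraries they could not be read as a mark of contact with debris. After each cell was thinned to 1000 UMIs, 9.40% of microglia and 8.89% of injury macrophages at 3 dpi held a UMI of 1 of 9 myelin and oligodendrocyte genes, as did 12.8% of microglia in the ActD sham, 9.27% at 14 dpi and 15.0% of T cells at 3 dpi. Median depths before thinning were 18486, 17119 and 3633 UMIs for the 3 classes of 3 dpi. The share in phagocytes was thus not above that of T cells. It was higher still in B cells, at 38.6% in the standard sham, 59.4% in the ActD sham, 19.4% at 3 dpi and 38.6% at 14 dpi. Cnp, a gene of the list, was at 617.8 CPM in B cells and 55.5 CPM in microglia of the ActD sham, so the list was not specific to myelin in these cells. Cells with and without such a UMI had sums of the 7 genes whose intervals of the ratio held 0 after injury: 51.5 and 57.3 CPM in microglia at 3 dpi (-0.15, -0.49 to 0.17), 80.2 and 84.5 CPM in microglia at 14 dpi (-0.08, -0.24 to 0.08), and 42.5 and 41.4 CPM in injury macrophages at 3 dpi (0.04, -0.21 to 0.27). In the ActD sham they were 140.0 and 122.4 CPM (0.19, 0.02 to 0.37).

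Lymphocytes served as cells assumed to take up no myelin. The T cell counts of 3 dpi held transcripts of the lipid-loading list. All 10 genes of that list were past 1.5-fold lower at 14 than at 3 dpi in T cells, beside 16.8% of all genes, with a median log2 ratio of -3.63. The part of free RNA in the T cell values was not tested. In T cells the sum was 83.0 CPM (58.1 to 115, 36 UMIs) in the standard sham, 91.2 CPM (78.4 to 105) at 3 dpi and 93.3 CPM (84.1 to 103) at 14 dpi, with all intervals overlapping. From 3 to 14 dpi the ratio was 0.03 (-0.23 to 0.30). Srebf2 and Hmgcs1 differed in opposite directions. Srebf2 was at 49.9 CPM (40.5 to 60.7) at 3 dpi and 37.3 CPM (31.6 to 43.9) at 14 dpi (-0.42, -0.79 to -0.04). Hmgcs1 was at 9.07 CPM (5.37 to 14.3) and 16.9 CPM (13.1 to 21.5), a ratio of 0.90 (0.13 to 1.74), and the intervals of the other 5 genes held 0. Without Srebf2 the sum was at 0.44 (0.07 to 0.82). Relative to the median of all genes (0.16), Srebf2 was just past 1.5-fold lower and Hmgcs1 and Lss were past 1.5-fold higher (with 0.5 UMIs added), beside 16.8% and 13.4% of all genes. In the T cells of the standard sham no UMI of Fdft1 or Lss was found, which allows up to 6.92 CPM by the limit of 3 UMIs used for a count of 0.

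T cells and microglia of the 3 dpi library differed mainly in Srebf2, and those of 14 dpi differed in several of the genes. At 3 dpi the T cell sum was higher by 0.68 (0.45 to 0.91), and Srebf2 was at 49.9 against 17.4 CPM (1.52, 1.18 to 1.85). Without Srebf2 the ratio was 0.07 (-0.28 to 0.40), so that no difference in the 6 enzymes together was detectable at this depth. Sqle was higher in T cells (7.56 against 3.34 CPM, 1.18, 0.26 to 2.0). At 14 dpi the sum differed by 0.15 (-0.01 to 0.30), with Srebf2 (0.94), Lss (1.29) and Sqle (1.02) higher and Cyp51 (-0.92) and Hmgcs1 (-0.40) lower in T cells. Without Srebf2 the T cells were lower than microglia at 14 dpi (-0.21, -0.41 to -0.01). The median of all genes for T cells over microglia was -0.08 at 3 dpi and 0.23 at 14 dpi. The T cells had no ActD sham counterpart, so the early drop seen in microglia against that library could not be looked for in them.

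B cells of the ActD sham held 48 UMIs of the 7 genes in 64 cells, of which Srebf2 gave 33. The sum of the 7 was 95.5 CPM (87.7 to 104) in the standard sham, 113.6 CPM (83.8 to 151) in the ActD sham, 81.0 CPM (53.8 to 117, 28 UMIs) at 3 dpi and 120.4 CPM (109 to 133) at 14 dpi. The ratio of 3 dpi over the ActD sham was -0.49 (-1.22 to 0.21), an interval that held both 0 and the microglial value of -1.13. Srebf2 was at 39.1, 78.1, 55.0 and 40.1 CPM, with its highest value in the ActD sham. Without Srebf2 the B cells were higher at 14 dpi than in the ActD sham (80.3 against 35.5 CPM, 1.18, 0.43 to 2.04). The 14 dpi B cells held a cluster of 202 cells led by Vpreb3 and Vpreb1, genes of the surrogate light chain of B cell precursors, and the ActD sham had no such named cluster. Without it the B cells of 14 dpi were at 76.2 CPM (59.4 to 96.3) for the 6 enzymes and at 68.6 CPM (52.7 to 87.8) for Srebf2. NK cells held 12 UMIs of the 7 genes at 3 dpi and 76 at 14 dpi, and their ratio of -0.74 (-1.63 to 0.27) had an interval that held 0.

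Border macrophages, which line the meninges and vessels, showed the same direction as microglia. Their sum was 110.6 CPM (89.4 to 135) in the standard sham, 186.4 CPM (162 to 213) in the ActD sham, 70.0 CPM (60.1 to 81.0) at 3 dpi and 85.5 CPM (74.0 to 98.3) at 14 dpi. Against the ActD sham the ratios were -1.41 (-1.71 to -1.12) at 3 dpi and -1.12 (-1.41 to -0.84) at 14 dpi, and relative to the medians of all genes -1.10 and -0.88. Idi1 (29.0, 5.08 and 10.7 CPM in the ActD sham and at 3 and 14 dpi) and Sqle (12.3, 2.35 and 4.73 CPM) had the lowest ratios at 3 dpi. These cells numbered 94 to 210 per library.

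Neutrophils, which are short-lived, did not have a lower summed CPM after injury than in the ActD sham, but held fewer UMIs of the genes per cell. Their sum was 65.7 CPM (57.2 to 75.1) in the standard sham, 78.6 CPM (65.9 to 93.1) in the ActD sham, 82.4 CPM at 3 dpi and 93.5 CPM (86.8 to 101) at 14 dpi. The ratio of 14 dpi over the ActD sham was 0.25 (-0.02 to 0.53), with Idi1 at 16.6 against 3.52 CPM (2.24, 1.08 to 3.71). The median of all genes in the 3 dpi pair was at 1.05. Relative to that median the sum was thus lower at 3 dpi than in the ActD sham. The median depth was 2291 against 13650 UMIs, so that pair is given only as levels.

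The genes whose level was most like the summed level of the 7 were sought over the 30 groups of a class in a library with at least 50 cells, among 5681 genes with a mean of at least 20 CPM. The points share libraries, so the correlations are descriptions. The highest Pearson r of log2(CPM + 5) belonged to Sav1 (0.75), Spop (0.73) and Tnks (0.68), followed by 2900097C17Rik, Ptprs, Hmg20b, Ppp4r2, Hmgn3, Kat2b and Klc1 down to 0.64. None of these 10 belongs to the lists above. Other synthesis genes lay lower, with Fdps at 0.54 (rank 62), Msmo1 at 0.45 (rank 257) and Pmvk at 0.41 (rank 402). The remaining synthesis enzymes of the list were not ranked, because of the limit on mean CPM or sex linkage. Their r ran from 0.12 (Ebp) to 0.55 (Acat2). Stard4 of the uptake list, also not ranked, was at 0.55. The exporter Abca1 was at -0.11.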

How the data were processed

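The deposited files were 1 gene by cell matrix of UMI counts per library, made by the authors with Cell Ranger on the mm10 genome according to the submitters' processing notes, from Chromium 3′ libraries. The counts are raw and were not normalized. The matrix headers of the standard sham and 3 dpi give version 3.0.1 and those of the other 2 libraries give 3.1.0. Version and condition thus cannot be told apart in 3 dpi over the ActD sham or in 14 dpi over 3 dpi. Version and dissociation cannot be told apart in the standard sham over the ActD sham. All 4 libraries were used. The 7 genes, the gene lists and the comparisons were chosen with earlier results of these data known.

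Barcodes under 600 genes or over 10% mitochondrial UMIs were dropped, cells with both Itgam and a lymphoid marker were removed, as were the highest Scrublet scores (scanpy 1.11.5) at a rate of 0.8% per 1000 barcodes (291, 42, 774 and 931 cells), and cells were clustered with Seurat 5.3.0 (R 4.3.3) after anchor integration of the 3 ActD and injury libraries, or of both shams for the standard sham (50 dimensions, resolution 0.6). Clusters were named from fixed markers. How strictly markers had to be met was decided once the clusters had been seen. Levels are summed UMIs scaled to 1000000, intervals are exact Poisson or binomial (SciPy 1.17.1), and ratios have exact conditional intervals. PCR and cell to cell variation are not covered. Medians used genes with at least 20 UMIs in a pair and 0.5 added.

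Of each further list all genes were counted except 3 that are not reported here, and at most 5 genes were named per comparison, those with the largest and smallest ratios among genes with at least 50 UMIs. Genes named in counts of 5 or fewer, and Abca1 and Abcg1, fall outside that rule and were chosen after their values were seen. The 10 genes of most like pattern were taken by Pearson r, leaving out sex-linked, mitochondrial, haemoglobin, immunoglobulin and ribosomal protein genes. The calculation of the ratios was checked on simulated Poisson counts, which hold no variation between cells or libraries. Alternatives were TMM factors (edgeR 4.0.16), cell means, other clustering, doublets kept, stricter filters, cells without myelin UMIs, sums without 1 gene and other splits.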

Additional observations from a re-analysis of the deposited data

Results flagged for a closer look

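Each result below was picked out because the same contrast gave opposite signs in 2 classes of cells, with both counting intervals clear of 0. With 1 library per condition none of these differences was tested.

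For Srebf2, the standard sham over the ActD sham was at 0.26 in microglia and -1.0 in B cells, a difference of 1.26 on the log2 scale, and the B cells of the ActD sham held 33 Srebf2 UMIs. From 3 to 14 dpi, Srebf2 was at 0.65 in Vcan-led cells and -0.42 in T cells (a difference of 1.06).

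For Idi1, 14 dpi over the ActD sham was at 2.24 in neutrophils, where the ActD sham had 6 UMIs. It was at -1.09 in microglia (a difference of -3.33) and at -1.43 in border macrophages (-3.67). For the 6 enzymes without Srebf2, the same contrast was at -0.55 in microglia, -1.01 in border macrophages, 1.18 in B cells and 0.41 in neutrophils. The differences were -1.73 for microglia against B cells, -0.96 for microglia against neutrophils, 2.19 for B cells against border macrophages and -1.43 for border macrophages against neutrophils. Under TMM factors the microglial value was 0.03, so that the opposite sign was lost for microglia and kept for border macrophages (-0.73). The B cells at 14 dpi included a cluster of 202 cells led by Vpreb3 and Vpreb1, whereas the 64 B cells of the ActD sham were 1 cluster, and the part of this in the difference was not tested.

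For the highest over the lowest tercile of lipid-loading share, Cyp51 was at 0.38 in microglia at 14 dpi. It was at -0.47 in microglia of the ActD sham (a difference of -0.85 for the ActD sham against 14 dpi) and at -0.88 in injury macrophages at 3 dpi (a difference of 1.27 for 14 dpi microglia against them). The 6 enzymes without Srebf2 were at -0.63 in the ActD sham and 0.19 at 14 dpi in microglia (-0.82). Depth was even between the terciles in the ActD sham and uneven at 14 dpi, and its part was not tested.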

How the results depend on the processing

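No paired analysis was possible because each condition was 1 library. Of the alternative values of the summed ratios, 54 lay within the counting interval of the reported value, 24 outside it and 2, reported with an interval clear of 0, had the other sign. Of the others, 5 also had the other sign, with a reported interval that held 0: T cells under TMM factors (-0.077) and the terciles of 14 dpi microglia under 4 settings, of which 3 are given below and the sum without Cyp51 was at -0.0035. Of those for single genes, 406 lay within, 79 outside and 5 had the other sign (and 53 more whose reported interval held 0), and the 11 medians over the 7 genes moved little with every gene with a UMI counted. The cause of a move was not tested unless given here. Under TMM factors the microglial sum was at -0.67 for 3 dpi over the ActD sham. It turned to 0.012 for 14 dpi over the ActD sham and to 0.038 for the standard over the ActD sham, as did Hmgcs1 (0.021 and 0.097), which follows from the scaling, whose log2 factors were -0.58 and -0.53. With TMM the macrophages over microglia at 3 dpi were at -0.15, and the terciles of 14 dpi microglia and 3 dpi macrophages at 0.31 and -0.022. Leaving out every cell with a myelin-list UMI at full depth kept 276 of 916 microglia at 3 dpi and 509 of 1614 in the ActD sham. The sums were then at -0.78 for 3 dpi, -0.39 for 14 dpi and -0.28 for the standard sham over the ActD sham, at -0.76 for macrophages over microglia and at -0.066 for the terciles of 14 dpi microglia, and Cyp51 in the terciles of macrophages turned to 0.44. The stricter filter gave -1.25 for microglia at 3 dpi. Clustering each library alone gave -0.47 for microglia at 14 dpi over the ActD sham, 0.45 for their terciles and -0.38 for those of macrophages. Resolution 1.2 and kept doublets gave -0.13 and -0.22 for macrophages over microglia, where Srebf2 turned to 0.17 and 0.11, and -1.11 and -0.62 for the terciles of macrophages. Without Srebf2 the sums were at -1.27 for 3 dpi and -0.85 for the standard sham over the ActD sham, and 0.44 for T cells. The terciles of 14 dpi microglia were at -0.079 without Plin2 and Lpl in the list and at -0.080 with cells thinned to 2000 UMIs. As alternatives added after the data had been seen, macrophages over microglia at 3 dpi were at -0.34 without cycling microglia and at -0.30 with Vcan-led cells added. The drop of the microglial sum at 3 dpi kept its sign in each alternative run for it. Depth limits the lymphocytes: B cells of the ActD sham held 48 UMIs of the 7 genes, and the ActD sham had no T cell cluster.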
